A study of Bos taurus with 8 samples.

Results

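The mitochondrial ribosomal protein genes were followed in granulosa cells of beef cows in summer and in winter. They were chosen as every gene of the deposited table whose symbol begins with *MRPL* or *MRPS* and a digit, which gave 77 of 26804 listed genes, 48 named for the large (*MRPL*) and 29 named for the small ribosomal subunit (*MRPS*). Cells came from multiparous dry beef cows (Angus in the series description, a Bos taurus crossbreed in the methods) that were kept together, synchronized with a CIDR device, stimulated with FSH and aspirated by ovum pick-up (OPU) once in August (summer) and once in winter, so that season and OPU session cannot be told apart. Summer was represented by 4 libraries (replicates 1, 2, 3 and 5) and winter by 4 (replicates 1, 3, 4 and 5). Each library was made from RNA pooled from a pair of cows. No other treatment is named in the labels, and ages were not given in the sources used here. The same herd was sampled in both seasons, and which cows made up each pool was not given, so the pools were compared as independent and the p-values below measure the spread between pools.

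Mitochondria carry their own ribosomes, which translate the few proteins encoded in mitochondrial DNA, all of them subunits of the respiratory chain or of ATP synthase. The RNA of the mitoribosome is transcribed from mitochondrial DNA, whereas its proteins are encoded in the nucleus, made in the cytosol and imported, so the whole set has to be supplied from separate nuclear genes. The large subunit forms the peptide bond and releases the nascent chain through its exit tunnel, and the small subunit binds the mRNA and decodes it. In granulosa cells, mitochondria also host the first step of steroid hormone synthesis.

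The symbol does not always give the place of the protein. By the structures of mammalian mitoribosomes, *MRPS30* and *MRPS18A* encode proteins of the large subunit, and *MRPS36* encodes a component of the alpha-ketoglutarate dehydrogenase complex rather than of the ribosome. Counts are therefore given by symbol and, where the subunits are compared, by structure also (50 large and 26 small subunit genes, without *MRPS36*). Members that do not carry the prefix, such as *DAP3*, are described separately.

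Values were deposited as TPM, a transcript level corrected for transcript length and for the total of the library. The 13 protein-coding mitochondrial genes held between 50.7 and 87.7% of all TPM in the summer libraries and between 85.1 and 92.0% in the winter libraries, and the level of every nuclear gene in a library was lowered accordingly. Levels are therefore given as scaled TPM, with these 13 genes left out of the total, the rest set to 1000000 and a factor per library by the trimmed mean of M-values (TMM). Season was tested with limma on log2(scaled TPM + 1) across 13046 genes with Benjamini-Hochberg adjustment, and a gene was called past the threshold at an adjusted p of at most 0.05. Fold changes are on that scale, with the pseudocount of 1, and log2 values are summer minus winter. Read numbers were given in the study only as an average, so the depth behind each value is unknown.

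The cells of the libraries were not of equal makeup by their markers. Counts of markers past the threshold stand beside 11% of all genes tested that were higher and 10.2% that were lower in summer. Of 10 granulosa markers, 7 were higher and 0 lower in summer, and their summed level ranged from 21913 to 61096 scaled TPM in summer and from 11626 to 16055 in winter. *INHA* made up most of that sum, with means of 29370.8 of 45857.3 in summer and 10543.5 of 14204.4 in winter. *FOXL2*, also on the list, had a negative log2 fold change (-0.75, SE 0.30, limma adjusted p = 0.0992). Of 10 leukocyte markers, 9 were lower in summer, with sums of 160 to 347 in summer and 683 to 1380 in winter. Of 8 red blood cell markers, 3 could be tested and were lower in summer (39.3 to 99.1 against 566 to 42452), and *SLC4A1* was at 0 in each summer library. Fibroblast and theca markers (10 genes) summed to 271 to 581 in summer and 501 to 1365 in winter with 1 higher and 6 lower, and 9 epithelial markers summed to 657 to 1534 and 1465 to 4294 with 1 higher and 4 lower. The sums of granulosa, leukocyte and red blood cell markers did not overlap between seasons, and those of fibroblast and theca and of epithelial markers did. The part of these lists in the results below was not tested. In such bulk RNA, fewer cells of a type and less RNA per cell cannot be told apart.

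Each of the 77 mitoribosomal protein genes was detected above 0 in each of the 8 libraries and passed the filter on low values. Their mean levels had a median of 59.6 scaled TPM, compared with 10.1 over all genes tested, and the median was 74.4 for large and 53.6 for small subunit genes. Among large subunit genes, the highest means were those of *MRPL41* (63.2 TPM, 307 scaled TPM), *MRPL27* (44.0 TPM, 222 scaled), whose bacterial counterpart reaches the peptidyl transferase centre, and *MRPL24* (41.7 TPM, 205 scaled), a protein of the tunnel exit. The lowest were *MRPL4* (3.30 TPM), *MRPL48* (4.21 TPM), a protein of the central protuberance, and *MRPL32* (5.22 TPM). Among small subunit genes, *MRPS6* (79.8 TPM, 408 scaled TPM), *MRPS33* (53.8 TPM, 264 scaled) and *MRPS16* (48.3 TPM, 223 scaled) stood at the top, and *MRPS9* (4.29 TPM), *MRPS27* (5.71 TPM) and *MRPS31* (5.98 TPM) at the bottom. Genes whose proteins sit in the same particle thus differed by more than 10 times in their transcript level.

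The seasons differed in single mitoribosomal protein genes and in both directions. Of the 77 genes, 12 were past the adjusted p (15.6%), compared with 21.2% of all genes tested. *MRPS18C*, *MRPL50*, *MRPS30*, *MRPL39*, *MRPL35* and *MRPL19* were higher in summer (6 genes; 11.0% of all genes were past the threshold in that direction). *MRPL36*, *MRPL10*, *MRPS26*, *MRPL9*, *MRPL52* and *MRPS34* were lower in summer (6 genes; 10.2% of all genes were). Before adjustment, 12 genes were higher and 13 lower at a p under 0.05, beside 2498 and 2179 of all 13046 genes tested. A further call that also asked for a 2-fold change was met by *MRPS18C* and by 12.8% of all genes. These directions hold for the scaled TPM: on the TPM as deposited 62 genes were higher and 0 lower (limma, 0 lower also before adjustment at a p under 0.05), and without the TMM factor 23 were higher and 1 lower. Of all 13046 genes tested, 8203 were past the threshold on the TPM as deposited and 3902 without the TMM factor, so these counts shifted for all genes also.

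The fold changes of the 77 genes covered a narrower range than those of all genes tested. On the log2 scale they ran from -0.89 to 1.22 with a median of -0.053, an interquartile range of -0.23 to 0.24 and an SD of 0.40. Over all genes tested the median was 0.034, the interquartile range -0.39 to 0.45 and the SD 0.80. There were 35 genes with a positive and 42 with a negative value. Within 0.5 of 0 in either direction lay 59 of the 77, beside 7452 of all 13046 genes tested. The seasons did not overlap in 15 of the 77 genes (19.5%, beside 24.3% of all genes): 8 had every summer library above every winter library and 7 the reverse. The libraries of a season also lay closer together for these genes, with a median within-season SD of 0.24 on the log2 scale compared with 0.37 over all genes. The 77 genes had a higher median level than all genes tested (59.6 against 10.1 scaled TPM). Genes of matched level were not compared, so the narrower range and the smaller SD cannot be told apart from an effect of level.

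**Figure D1:**
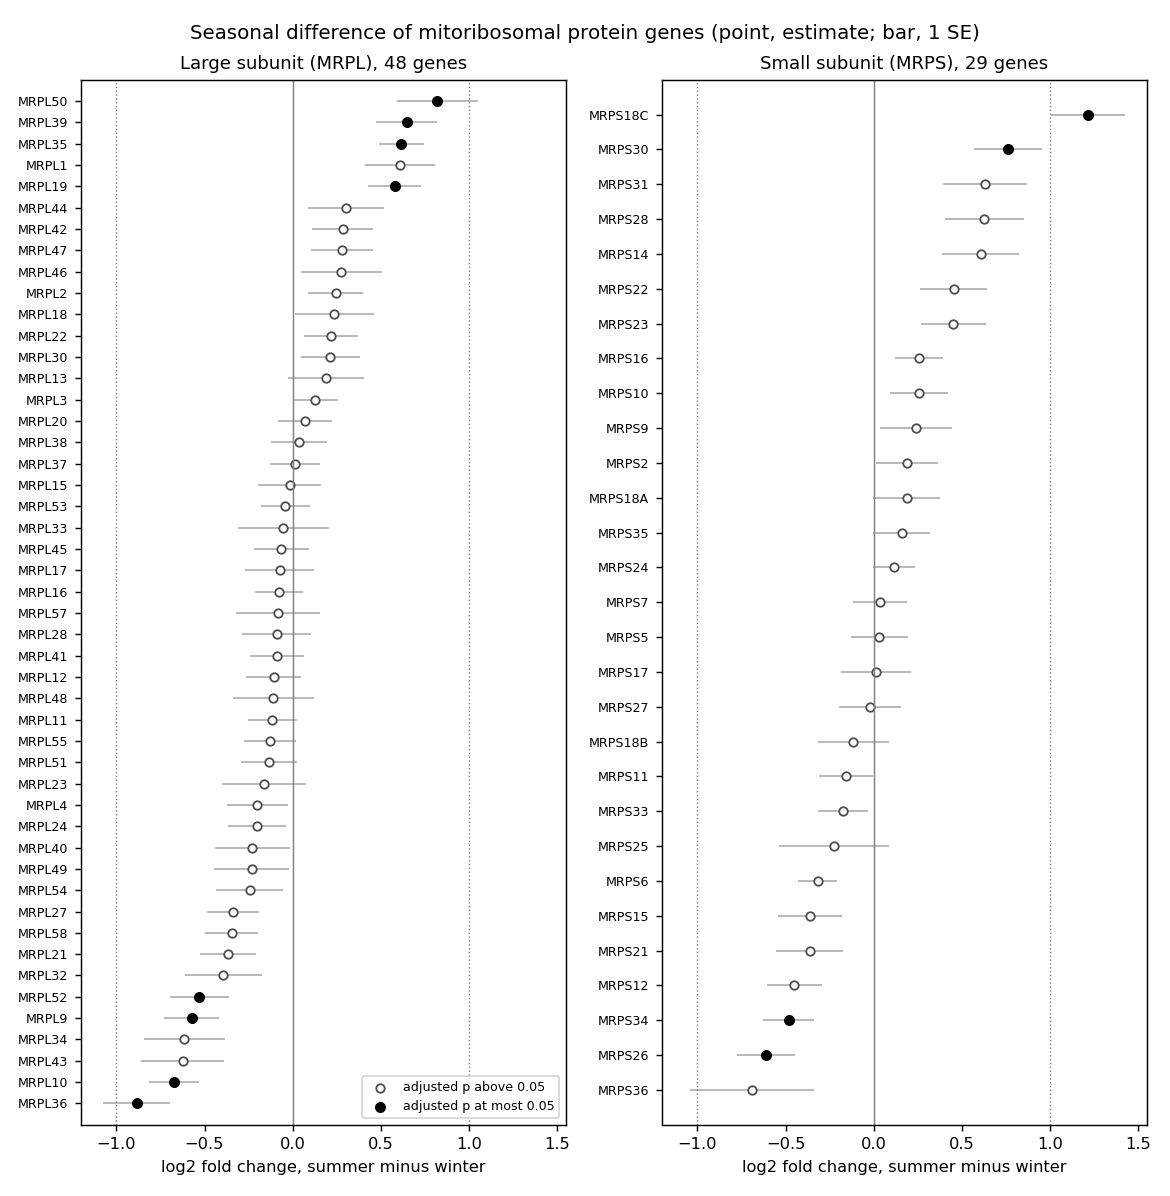
Log2 fold change of each of the 77 genes on the scaled TPM (horizontal axis, summer minus winter), large subunit genes by symbol on the left and small subunit genes on the right; points are the limma estimates, bars 1 SE, filled points an adjusted p of at most 0.05 and dotted lines a 2-fold change. Filled points stand on both sides of 0 in both panels, and *MRPS18C* at 1.22 is the gene beyond a 2-fold change; on the TPM as deposited the 77 points lie above 0.

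*MRPS18C* had the largest difference of the set. It encodes bS18m, the counterpart of bacterial S18 on the platform of the small subunit. Its level was 72.8, 93.0, 76.7 and 90.1 scaled TPM in summer (replicates 1, 2, 3 and 5, an order kept throughout) and 43.0, 36.0, 42.8 and 22.6 in winter (replicates 1, 3, 4 and 5). Every summer library was above every winter library, and winter replicate 5 was the lowest of the 8. The means were 83.1 ± 9.90 and 36.1 ± 9.57 (SD, n = 4 per season), and the difference of 1.22 (SE 0.21, limma adjusted p = 0.00371), or 2.32-fold, was larger than the spread within seasons. It passed the adjusted p without any single library and under each scaling, and missed it with the share of mitochondrial genes added as a covariate (1.27, adjusted p = 0.0562).

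Mammals have 3 genes of the S18 family, and they did not share this pattern. *MRPS18A*, whose product sits in the large subunit, stood at 71.5, 87.6, 73.7 and 85.6 scaled TPM in summer and 102, 65.3, 54.9 and 64.0 in winter. *MRPS18B*, whose product sits in the small subunit at a place of its own, stood at 59.4, 56.9, 40.4 and 45.1 in summer and 55.0, 56.3, 70.3 and 39.1 in winter. The seasons overlapped in both, and their log2 fold changes were 0.19 (SE 0.19, adjusted p = 0.514) and -0.11 (SE 0.20, adjusted p = 0.722). The ratio of *MRPS18C* to *MRPS18A* within a library does not depend on a factor per library. It was 1.02, 1.06, 1.04 and 1.05 in the summer libraries and 0.423, 0.552, 0.781 and 0.353 in the winter libraries. The ratio to *MRPS18B* was 1.22, 1.63, 1.90 and 1.999 in summer and 0.781, 0.639, 0.609 and 0.579 in winter. Both ratios were thus above 1 in each summer and below 1 in each winter library. The difference between the paralogs' fold changes was not itself tested.

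**Figure D2:**
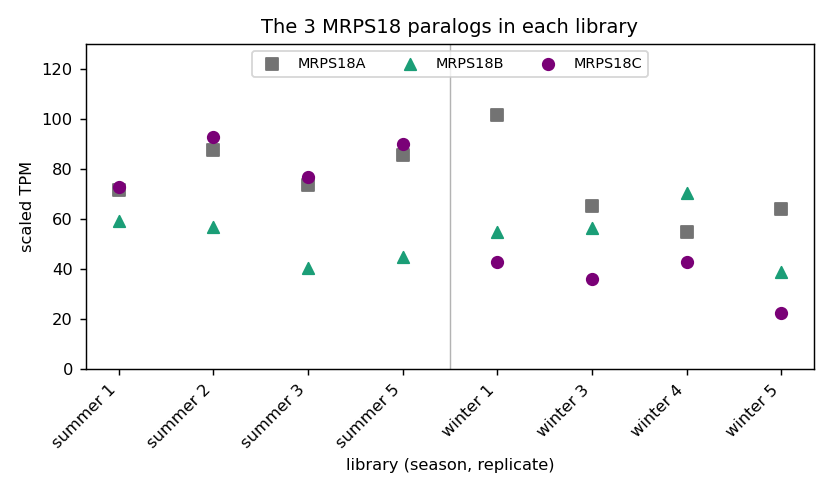
Scaled TPM (vertical axis) of the paralogs *MRPS18A* (squares), *MRPS18B* (triangles) and *MRPS18C* (circles) in each of the 8 libraries, with the line dividing summer from winter. *MRPS18C* lies beside *MRPS18A* in summer and is the lowest of the paralogs in each winter library.

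In the reference annotation *MRPS18C* overlaps *ABRAXAS1*, a DNA repair gene, and strand-specific counting is not stated, so reads of the pair may have been shared. *ABRAXAS1* had 18.4 ± 2.94 scaled TPM in summer and 15.3 ± 5.72 in winter (SD, n = 4 per season), with a log2 fold change of 0.33 (SE 0.29, adjusted p = 0.456). Of the 77 genes, 14 overlap another protein-coding gene, and of the 12 past the adjusted p *MRPS18C* was the only such gene.

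Of the other genes higher in summer, *MRPL35* differed most in relation to its spread. It encodes bL35m of the large subunit. Its level was 86.4, 93.3, 94.1 and 109 scaled TPM in summer and 64.4, 55.6, 64.9 and 62.8 in winter. Each summer library was above each winter library, with means of 95.6 ± 9.41 and 61.9 ± 4.31 (SD, n = 4 per season) and a log2 fold change of 0.62 (SE 0.13, adjusted p = 0.00885). *MRPL35* stayed past the threshold when any single library was left out. With the mitochondrial share as a covariate its adjusted p was 0.0634.

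*MRPS30*, a mitochondria-specific protein of the large subunit despite its symbol, had 46.5, 35.0, 29.01 and 43.1 scaled TPM in summer and 18.3, 26.4, 21.7 and 21.9 in winter. The seasons did not overlap, although summer replicate 3 came close to winter replicate 3 (log2 fold change 0.76, SE 0.19, adjusted p = 0.0201). *MRPL19*, encoding bL19m of the large subunit, had 54.9, 68.0, 63.8 and 55.8 scaled TPM in summer and 44.3, 44.9, 37.8 and 34.3 in winter, again without overlap (0.58, SE 0.15, adjusted p = 0.0214). Both lost the threshold when some single libraries were left out. For *MRPS30* these were summer replicate 1 (adjusted p = 0.0706) and summer replicate 5 (0.0586), and for *MRPL19* summer replicate 2 (0.0629) and winter replicate 5 (0.0607).

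*MRPL39*, a mitochondria-specific large subunit protein, had 45.3, 51.3, 49.8 and 60.3 scaled TPM in summer and 33.5, 42.0, 27.2 and 28.97 in winter. The seasons did not overlap, with a log2 fold change of 0.65 (SE 0.17, adjusted p = 0.0243). *MRPL50*, also mitochondria-specific, had 106, 149, 112 and 151 in summer and 56.4, 117, 65.9 and 61.9 in winter. Here winter replicate 3 lay within the summer range, and the log2 fold change was 0.82 (SE 0.23, adjusted p = 0.0290). Without summer replicate 2, *MRPL39* and *MRPL50* had adjusted p values of 0.0622 and 0.0844, without summer replicate 5 of 0.0698 and 0.0801, without winter replicate 4 of 0.0551 and 0.0584, and without winter replicate 5 of 0.0664 and 0.0773. *MRPL50* also missed the threshold without winter replicate 1 (0.0721).

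Among the genes lower in summer, *MRPL36* had the largest difference and *MRPL10* the smallest adjusted p. *MRPL36* encodes bL36m, a short zinc-binding protein of the large subunit. Its level was 36.8, 28.1, 37.4 and 26.9 scaled TPM in summer and 52.2, 54.8, 54.7 and 82.1 in winter. No summer library reached the lowest winter library, and winter replicate 5 stood above the other winter libraries. The means were 32.3 ± 5.55 and 61.0 ± 14.2 (SD, n = 4 per season), a log2 fold change of -0.89 (SE 0.19, adjusted p = 0.00998). *MRPL10* encodes uL10m, the base to which the copies of MRPL12 attach in the stalk that recruits translation factors. It stood at 36.5, 32.7, 36.8 and 31.0 scaled TPM in summer and 52.4, 58.2, 60.5 and 49.8 in winter. The gap between the seasons was wider than the range within either (-0.67, SE 0.14, adjusted p = 0.00868). Both genes stayed past the threshold without any single library. With the mitochondrial share as a covariate, the adjusted p was 0.0987 for *MRPL36* and 0.0885 for *MRPL10*, and on the TPM as deposited both had a positive log2 fold change (0.54 and 0.73).

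*MRPL9*, encoding bL9m of the large subunit, had 142, 133, 121 and 109 scaled TPM in summer and 155, 229, 168 and 209 in winter. *MRPS34*, a mitochondria-specific small subunit protein, had 63.7, 68.8, 72.5 and 51.2 in summer and 82.4, 94.7, 85.3 and 94.7 in winter. The seasons did not overlap in either gene, with log2 fold changes of -0.57 (SE 0.15, adjusted p = 0.0250) and -0.48 (SE 0.14, adjusted p = 0.0367). *MRPS26*, also a mitochondria-specific small subunit protein, had 132, 214, 139 and 132 in summer and 222, 239, 254 and 211 in winter. In this gene summer replicate 2 reached the winter range (-0.61, SE 0.17, adjusted p = 0.0268). *MRPL52*, a mitochondria-specific large subunit protein, had 121, 147, 107 and 122 in summer and 145, 233, 159 and 188 in winter, where summer replicate 2 lay just above winter replicate 1 (-0.53, SE 0.17, adjusted p = 0.0461).

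These last genes were near the threshold, and single libraries decided their calls. *MRPL9* missed it without summer replicate 5 (adjusted p = 0.0689), winter replicate 3 (0.0570) or winter replicate 5 (0.0719). *MRPS26* missed it without summer replicate 1 (0.0812), summer replicate 5 (0.0737), winter replicate 3 (0.0539) or winter replicate 4 (0.0591). *MRPL52* missed it without summer replicate 1 (0.107), 3 (0.0882) or 5 (0.0938), or without winter replicate 3 (0.0980), 4 (0.0522) or 5 (0.105). *MRPS34* kept its call only when summer replicate 3 was the library left out, and its adjusted p was otherwise between 0.0510 and 0.0925. The direction of these 4 genes stayed negative in each of these fits, and became positive on the TPM as deposited.

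**Figure D3:**
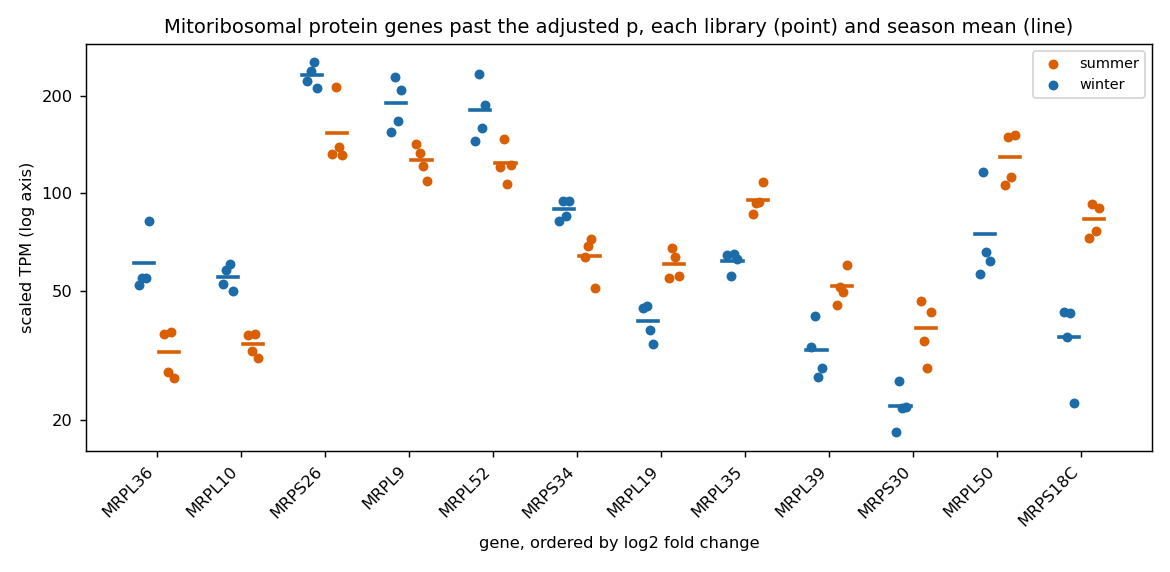
Scaled TPM (vertical axis, log scale) of the 12 genes past the adjusted p, ordered by log2 fold change, with a point per library, blue for winter and orange for summer, and lines at the season means (n = 4 each). The points of the seasons are apart in 9 genes and overlap in *MRPS26*, *MRPL52* and *MRPL50*; on the TPM as deposited, the first 6 genes had positive log2 fold changes.

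Some genes had log2 fold changes as large without passing the adjusted p. *MRPS36* stood at 63.1, 39.8, 35.6 and 18.4 scaled TPM in summer and 58.4, 66.2, 85.0 and 35.9 in winter, with a log2 fold change of -0.69 (SE 0.35, adjusted p = 0.182). It had the widest spread within seasons of the 77 genes (SD 0.62 on the log2 scale). *MRPL43*, a mitochondria-specific large subunit protein, had 42.6, 50.5, 25.3 and 52.6 in summer and 51.0, 60.5, 73.3 and 74.2 in winter (-0.62, SE 0.23, adjusted p = 0.0808). *MRPL34*, encoding bL34m, had 31.2, 46.9, 32.6 and 49.1 in summer and 76.6, 69.9, 40.01 and 61.9 in winter (-0.61, SE 0.23, adjusted p = 0.0828). A single library carried the overlap in *MRPL34*: without winter replicate 4 its log2 fold change was -0.81 (adjusted p = 0.0229).

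On the positive side, *MRPS31*, a mitochondria-specific small subunit protein, had 35.3, 31.4, 26.1 and 26.5 scaled TPM in summer and 13.6, 23.1, 27.0 and 14.5 in winter (0.63, SE 0.24, adjusted p = 0.0827). Winter replicate 4 lay within the summer range, and without it the adjusted p was 0.0369. *MRPL1*, encoding uL1m of the stalk beside the exit site for tRNA, had 43.2, 44.6, 36.5 and 50.8 in summer and 36.2, 31.4, 27.4 and 19.998 in winter. Its seasons did not overlap, and it missed the threshold narrowly (0.61, SE 0.20, adjusted p = 0.0508). Its values are given because it is a member of the most opposed pairs described below.

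*MRPS6*, the small subunit gene with the highest level, shows how close pools of a season could be. It had 356, 365, 368 and 361 scaled TPM in summer and 404, 440, 466 and 506 in winter. The seasons did not overlap, yet the log2 fold change was -0.32 (SE 0.11, adjusted p = 0.0644). Its within-season SD was 0.097 on the log2 scale. *MRPS6* overlaps *SLC5A3* in the reference annotation, so its values may include reads of that gene.

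Large and small subunit genes were compared by counts, medians and level within each library. Of the 48 large subunit genes, 4 were higher (*MRPL19*, *MRPL35*, *MRPL39* and *MRPL50*) and 4 lower in summer (*MRPL9*, *MRPL10*, *MRPL36* and *MRPL52*), which is 16.7%. Of the 29 small subunit genes, 2 were higher (*MRPS18C* and *MRPS30*) and 2 lower (*MRPS26* and *MRPS34*), which is 13.8%. Both subunits thus had as many genes past the threshold in one direction as in the other, at shares below the 21.2% of all genes. Negative values prevailed among large subunit genes (30 of 48) and positive values among small subunit genes (17 of 29), with medians of -0.081 and 0.037, where 6814 of 13046 genes tested were positive. The small subunit median was negative after quantile normalization (-0.059) and without summer replicate 2 (-0.016). On the TPM as deposited both medians were 1.36, and without the TMM factor they were 0.21 and 0.32. The higher large subunit genes were 1 without summer replicate 2 or winter replicate 5 and 2 without summer replicate 5 or winter replicate 4, and the lower ones were 2 without summer replicate 5, winter replicate 3 or winter replicate 5. The higher small subunit genes were 1 without summer replicate 1 or 5 and 4 without summer replicate 3. The lower small subunit genes were 0 without summer replicate 1, summer replicate 5, winter replicate 3 or winter replicate 4, and 1 without any other library except summer replicate 3, where they were 2. With single libraries left out, the count over all genes ranged from 1555 to 2904, beside 2767 with every library.

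With genes placed by structure, *MRPS30* moved to the large subunit, which then had 5 higher and 4 lower of 50 genes with a median of -0.076. The small subunit had 1 higher (*MRPS18C*) and 2 lower of 26 genes with a median of 0.034. Of the small subunit genes by structure, *MRPS18C* was thus the single gene past the adjusted p and higher in summer.

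Within each library, the levels of the subunits were compared next. The mean log2(scaled TPM + 1) of large minus that of small subunit genes was -0.017, 0.072, -0.014 and 0.12 in the summer libraries and 0.13, 0.16, 0.038 and 0.31 in the winter libraries. The season means were 0.040 ± 0.067 and 0.16 ± 0.11 (SD, n = 4 per season), and the seasons overlapped. The difference of -0.12 between them became -0.099 with genes placed by structure and ranged from -0.16 to -0.070 with single libraries left out, at its smallest without winter replicate 5, the library with the highest value. In a score of this kind over chosen genes no p was computed.

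The summed level of the 77 genes also overlapped between seasons. It was 6712, 7737, 6107 and 6891 scaled TPM in summer and 6471, 7815, 7010 and 7121 in winter, with means of 6862 ± 673 and 7104 ± 552 (SD, n = 4 per season). Summer over winter this was a ratio of 0.966, and it was 2.9997 on the TPM as deposited and 1.18 without the TMM factor.

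**Figure D4:**
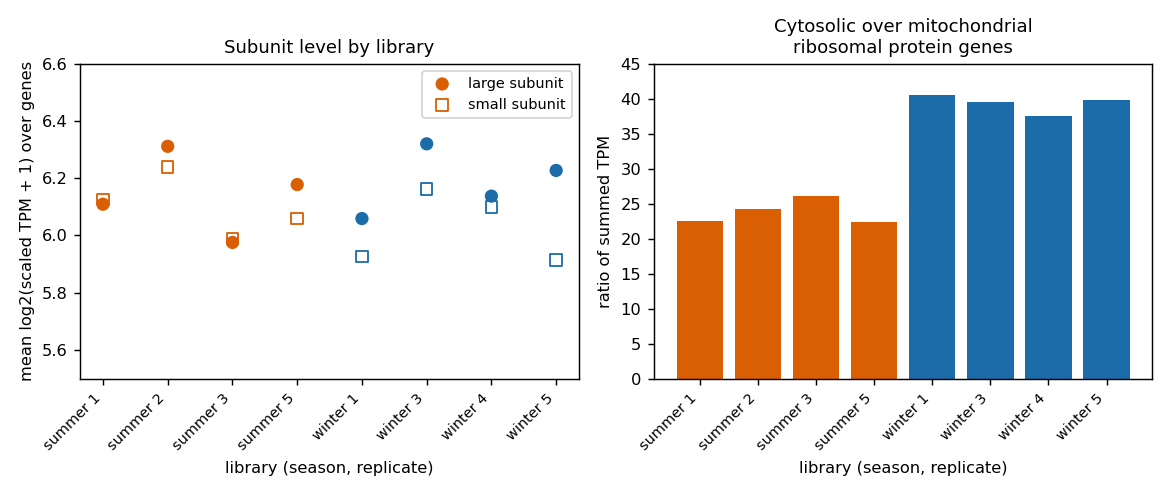
Left, mean log2(scaled TPM + 1) of large (circles) and small subunit genes (open squares) in each library, with orange for summer and blue for winter; the vertical axis does not start at 0. Right, summed level of 74 cytosolic ribosomal protein genes divided by that of the 77 mitochondrial ones in each library; large subunit genes lie above small ones by 0.31 in winter replicate 5, and the ratio on the right is between 22.4 and 26.04 in summer and between 37.5 and 40.5 in winter.

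The cytosolic ribosome, which translates all other mRNAs, stood apart from the mitochondrial one. Of 74 cytosolic ribosomal protein genes, 67 were lower and 0 higher in summer (limma, 0 higher also before adjustment at p under 0.05). That is 90.5% lower, beside 10.2% of all genes tested. The median log2 fold change of the cytosolic genes was -0.77. It was -0.47 without the TMM factor (49 lower, 0 higher), -0.34 after quantile normalization (36 lower, 2 higher) and 0.75 on the TPM as deposited (limma, 0 lower, also before adjustment, and 5 higher), where the median of all genes was 0.89. The ratio of the summed levels, cytosolic over mitochondrial, cancels any factor per library. It was 22.6, 24.3, 26.04 and 22.4 in the summer libraries and 40.5, 39.5, 37.5 and 39.8 in the winter libraries. The seasons did not overlap, and the summer mean was 0.605 of the winter mean, between 0.587 and 0.618 with single libraries left out and 0.851 after quantile normalization, which is not a factor per library. Among the marker lists above, the leukocyte sums were also apart and lower in summer (160 to 347 scaled TPM, 683 to 1380 in winter), as were the red blood cell sums. Granulosa marker sums were apart and higher in summer, and the fibroblast and theca and the epithelial sums overlapped. Within winter, replicate 1 had the highest ratio. It also had the lowest leukocyte (683), red blood cell (566) and granulosa sums (11626) and the highest epithelial sum (4294) of the winter libraries. Its fibroblast and theca sum (945) lay between those of the others. The part of these lists in the ratio was not tested.

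The choice of scaling shifted all genes and with them the 77 genes. The median log2 fold change of all genes tested was 0.034 on the scaled TPM, 0.28 without the TMM factor, 0.056 after quantile normalization and 0.89 on the TPM as deposited. Relative to that median, large subunit genes lay at -0.11 and small subunit genes at 0.0025 on the scaled TPM. They lay at -0.067 and 0.046 without the TMM factor, at -0.19 and -0.11 after quantile normalization, and at 0.47 and 0.47 on the TPM as deposited. The large subunit median was below the small subunit median in each of the 4 scalings (1.358 against 1.359 on the TPM as deposited), whereas the position of both against other genes was not the same on the TPM as deposited. *MRPS18C* had the highest and *MRPL36* the lowest value of the 77 in each of the 4 scalings, while other genes changed places. Except for quantile normalization, these scalings differ by a factor per library, which shifts all genes alike apart from the pseudocount. The order of genes and of subunits was thus nearly fixed in advance among them, and quantile normalization was the scaling free to change it.

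**Figure D5:**
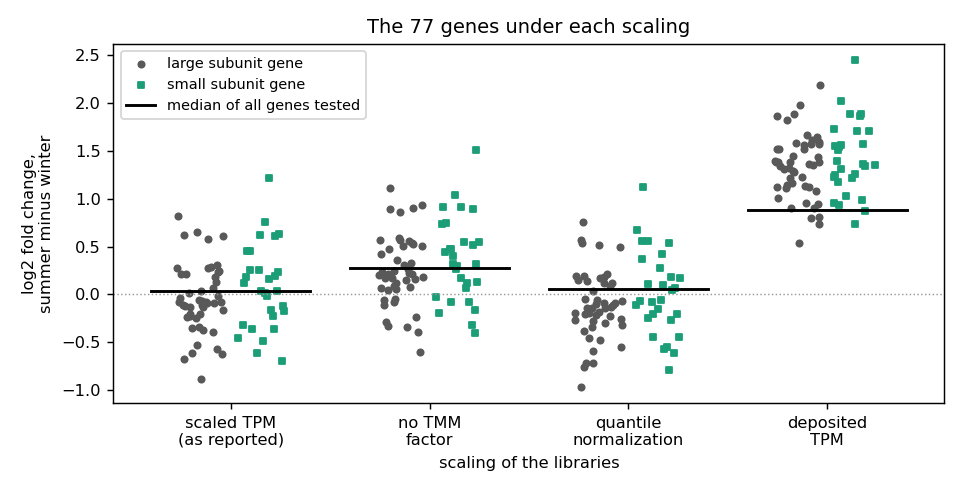
Log2 fold change, summer minus winter (vertical axis), of the 48 large (circles) and 29 small subunit genes (squares) under 4 scalings of the libraries, with a line at the median of all genes tested. The points lie around the line on the scaled TPM and after quantile normalization and mostly above it, at a line of 0.89, on the TPM as deposited.

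Genes were also grouped by origin and place of their protein. Of 44 genes with a bacterial homolog in the standard nomenclature, 3 were higher (*MRPS18C*, *MRPL35* and *MRPL19*) and 3 lower in summer (*MRPL36*, *MRPL10* and *MRPL9*), with a median log2 fold change of -0.0028. Of 32 mitochondria-specific genes, 3 were higher (*MRPL50*, *MRPS30* and *MRPL39*) and 3 lower (*MRPS26*, *MRPL52* and *MRPS34*), with a median of -0.074. These were shares of 13.6 and 18.8%, both below the 21.2% of all genes tested. The 5 genes of the stalk that receives translation factors (*MRPL10*, *MRPL11*, *MRPL12*, *MRPL53* and *MRPL54*) had negative values from -0.67 to -0.041 on the scaled TPM, of which that of *MRPL10* passed. *MRPL11* (0.17), *MRPL12* (0.18), *MRPL53* (0.25) and *MRPL54* (0.043) were positive without the TMM factor, and each of the 5 was on the TPM as deposited.

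Over the 8 libraries the genes did not rise and fall as 1 block. The 2926 pairs among the 77 genes had a median Pearson r of 0.16 on log2(scaled TPM + 1), and 1800 were positive. The points share library, scaling and season, and the r values are given as a description. The most alike pairs were *MRPL41* with *MRPL48* (r = 0.99), *MRPL24* with *MRPL54* (0.97), *MRPS25* with *MRPL45* (0.95), *MRPS2* with *MRPL46* (0.95) and *MRPS14* with *MRPL2* (0.94). None of these 10 genes passed the adjusted p for season (1, *MRPS14*, was at an unadjusted p under 0.05, limma). In *MRPL41*, for example, the level was 262, 357, 242 and 333 scaled TPM in summer and 277, 352, 344 and 290 in winter, and in *MRPL48* it was 15.6, 25.7, 15.2 and 23.3 in summer and 17.1, 25.5, 24.8 and 18.1 in winter. In both genes summer replicates 1 and 3 and winter replicates 1 and 5 were the low libraries of their season.

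*MRPS25* and *MRPL45*, a protein beside the tunnel exit that holds the ribosome at the inner membrane, were another such pair. *MRPS25* had 231, 201, 187 and 113 scaled TPM in summer and 158, 313, 295 and 126 in winter. *MRPL45* had 102, 102, 98.3 and 75.4 in summer and 86.1, 117, 106 and 86.8 in winter. Replicate 5 was the lowest summer library in both genes, and winter replicates 3 and 4 were the highest of winter.

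The most opposed pairs were *MRPS18C* with *MRPL36* (r = -0.98), *MRPL32* with *MRPL42* (-0.97), *MRPL10* with *MRPL35* (-0.96), *MRPL1* with *MRPS6* (-0.95) and *MRPL1* with *MRPL36* (-0.95). Except in *MRPL32* with *MRPL42*, the seasons did not overlap in either gene of these pairs. The ratio of *MRPS18C* to *MRPL36* was 1.98, 3.31, 2.05 and 3.35 in the summer libraries and 0.823, 0.657, 0.783 and 0.275 in the winter libraries. That of *MRPL35* to *MRPL10* was 2.37, 2.85, 2.56 and 3.51 in summer and 1.23, 0.955, 1.07 and 1.26 in winter. A factor per library does not change these ratios. The pairs were picked as the most opposed, in genes whose seasons lay apart in opposite directions, so the gap between the seasons' ratios follows from that choice.

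Of the 5 mitoribosomal proteins without the prefix, limma found 0 higher and 0 lower in summer (0 also at an unadjusted p under 0.05), and the seasons overlapped in each. *DAP3*, a GTP-binding small subunit protein, had a log2 fold change of -0.20 (SE 0.20), *CHCHD1* of -0.16 (SE 0.19) and *AURKAIP1* of -0.13 (SE 0.12), both also of the small subunit, and *GADD45GIP1*, of the large subunit, of -0.15 (SE 0.16). *PTCD3*, a pentatricopeptide repeat protein of the small subunit, had 22.04, 18.5, 18.3 and 18.3 scaled TPM in summer and 9.28, 20.9, 10.3 and 15.5 in winter (0.50, SE 0.25, adjusted p = 0.184). Winter replicate 3 was thus within the summer range in *PTCD3*, as it was in *MRPL50*.

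Around the ribosome, 4.35% of assembly, 11.1% of translation and 6.67% of transcription and biogenesis genes were past the threshold, beside 21.2% of all genes, and *TSFM* and *TFB2M* passed the 2-fold call. *TSFM* encodes the elongation factor that recycles EF-Tu in mitochondrial translation. It stood at 73.4, 72.3, 63.4 and 81.5 scaled TPM in summer and 39.8, 39.0, 25.6 and 34.8 in winter. The seasons were well apart (1.06, SE 0.17, adjusted p = 0.00297), a 2.08-fold difference. *TFB2M*, the factor with which the mitochondrial RNA polymerase starts transcription, had 30.0, 30.9, 24.2 and 29.9 in summer and 9.55, 17.9, 8.26 and 9.11 in winter (1.34, SE 0.24, adjusted p = 0.00469). *SLIRP*, which with LRPPRC keeps mitochondrial mRNAs stable, was lower, at 320, 377, 247 and 333 in summer and 406, 570, 594 and 536 in winter (-0.72, SE 0.17, adjusted p = 0.0132). These 3 genes stayed past the threshold without any single library, and missed it with the mitochondrial share as a covariate (adjusted p = 0.0615, 0.0928 and 0.0580).

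In the list of 18 translation factors, 1 was higher (*TSFM*) and 1 lower (*SLIRP*), with a median log2 fold change of 0.29, and in that of 15 transcription and biogenesis genes 1 was higher (*TFB2M*) and 0 lower (limma, 6 higher and 1 lower before adjustment at a p under 0.05), with a median of 0.32. Over all 13046 genes tested, 2498 were higher and 2179 lower before adjustment at that p. The transcription and biogenesis list summed to 203 to 240 scaled TPM in summer and 169 to 192 in winter, without overlap. *TFB2M* is part of that sum, with means of 28.8 and 11.2, where the means of the sum were 219 and 181. A sum without *TFB2M* was not computed. The seasons did not overlap in 4 of the 15 genes (26.7%, beside 24.3% of all genes), 2 in each direction. Of 23 assembly factors, 0 were higher (limma, 3 before adjustment at a p under 0.05) and 1 was lower, with a median of 0.047. The latter was *NGRN*, whose product takes part in mitoribosome assembly. *NGRN* stood at 42.6, 36.0, 42.0 and 41.1 scaled TPM in summer and 51.7, 54.1, 64.5 and 58.4 in winter (-0.49, SE 0.14, adjusted p = 0.0305). Its adjusted p was 0.0668 without summer replicate 1, 0.0756 without summer replicate 2, 0.0615 without summer replicate 5, 0.0726 without winter replicate 4 and 0.0737 without winter replicate 5. *SLIRP* and *NGRN* had a positive log2 fold change on the TPM as deposited (0.78 and 0.91).

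The count of 12 genes depended on single libraries. Without summer replicate 5 the genes past the threshold were 5, 3 higher and 2 lower, and without winter replicate 5 they were 6, 3 higher and 3 lower. Without summer replicate 1, 5 were higher and 3 lower, without summer replicate 2, 3 were higher and 6 lower, and without winter replicate 3, 7 were higher and 2 lower. The count over all genes fell also, from 2767 to 1824 without summer replicate 5 and to 1894 without winter replicate 5. It was 1555 without summer replicate 1, 1853 without summer replicate 2 and 2511 without winter replicate 3. *MRPS18C*, *MRPL35*, *MRPL36* and *MRPL10* passed in each of these fits. With the share of the mitochondrial genes as a covariate 0 of the 77 passed (limma, with 6 higher and 10 lower before adjustment at a p under 0.05), and the SEs were longer by a median of 1.39 times. Of all genes tested, 299 passed in that fit.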

How the data were processed

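Polyadenylated RNA of granulosa cells was sequenced in 8 libraries, and the authors deposited TPM values per Ensembl gene and symbol, which sum to 1000000 per library. Per the paper, reads were mapped and counted in CLC Genomics Workbench with TMM normalization on ARS-UCD1.3, whereas the submitters' processing notes list Bowtie2 2.2.2, bcl2fastq, DESeq2 and ARS-UCD1.2. RNA extraction kits and the winter month also differ between these sources. Reads shared by paralogs or overlapping genes cannot be separated. Depth per library is unknown, and no counting interval was computed.

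Scaled TPM left out the 13 mitochondrial genes, set the rest to 1000000 and applied a TMM factor (30% of M and 5% of A trimmed). A gene was tested where each of the 4 libraries of a season, summer or winter, had zFPKM above -3 (13046 of 26804). The test was limma 3.58.1 (R 4.3.3) with eBayes and a mean-variance trend. It was run on log2(scaled TPM + 1), season was its single factor, and p-values were adjusted by Benjamini-Hochberg. A 2-fold call also required zFPKM above -3 in the higher season. The script was tested on simulated data. Symbols were matched to RefSeq (ARS-UCD2.0, all 77 found) for names and neighbours only. Figures were drawn with matplotlib 3.10.9 (Python 3.11.15).

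The genes, lists and alternatives were chosen with earlier results of these data known. Named are genes past the adjusted p, the 5 highest and 5 lowest log2 fold changes among genes whose mean reached 5 scaled TPM, the 3 highest and 3 lowest mean TPM per subunit, *MRPS30*, the *MRPS18* paralogs, *MRPS36*, the 5 proteins outside the prefix, the 5 most and 5 least alike pairs and up to 4 genes past the adjusted p of each other list. Alternatives covered pseudocount, filter, scaling, replicate number as a block, mitochondrial share as a covariate, subunit assignment and each library left out. Of the lists, 23 of 25 assembly genes were found by symbol.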

Additional observations from a re-analysis of the deposited data

Results flagged for a closer look

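A sample stood far from the others of its season, by the gap to its neighbour relative to the range of the 4 libraries, in 8 of 82 groups of values examined, and chance alone flags about 1 in 20. Among the genes past the adjusted p, *MRPL36* stood at 82.1 scaled TPM in winter replicate 5, above 52.2 to 54.8 in the other winter libraries. *MRPS26* stood at 214 in summer replicate 2, above 132 to 139. *MRPL50* stood at 117 in winter replicate 3, above 56.4 to 65.9. *TFB2M* stood at 17.9 in winter replicate 3, above 8.26 to 9.55, and at 24.2 in summer replicate 3, below 29.9 to 30.9. Among the other genes, *DAP3* stood at 18.1 in summer replicate 3, above 12.4 to 13.2, *PTCD3* at 22.04 in summer replicate 1, above 18.3 to 18.5, and *MRPL4* at 13.9 in summer replicate 1, below 15.9 to 16.1. Winter replicate 3, summer replicate 3 and summer replicate 1 each gave 2 of these values. Each of these libraries was left out in turn, and *MRPL36* stayed past the adjusted p without winter replicate 5, *MRPS26* without summer replicate 2, and *MRPL50* and *TFB2M* without winter replicate 3.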

How the results depend on the processing

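Depth is unknown and 4 pools per season leave calls near the threshold unstable. Both pseudocounts, both filters, and counting 2 unnamed genes as mitochondrial (chosen after seeing the data) gave 11 to 13 genes past the adjusted p, of which 11 or 12 were among the 12 reported, and quantile normalization gave 13, of which 11 were. On the TPM as deposited 62 genes were higher and 0 lower (39 and 0 large, 23 and 0 small subunit genes), 8203 of all genes passed, both subunit medians were 1.36 (large 1.36, small 1.36) and the summed level had a ratio of 2.9997. Without the TMM factor 23 were higher and 1 lower (12 and 1 large, 11 and 0 small), 3902 of all genes passed, the medians were 0.21 and 0.32 and the ratio 1.18. With the mitochondrial share as a covariate 0 passed in either direction in both subunits, and 299 of all genes. Quantile normalization gave a cytosolic to mitochondrial ratio of 0.851, summer over winter.

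In a fit with replicate number as a block, 2 genes were higher and 2 lower (1 and 1 in each subunit), and 1789 of all genes passed. Number 2 occurs only in summer and number 4 only in winter, so the season difference in this fit rests on numbers 1, 3 and 5. The shared passing genes were 3 of the 4 (*MRPS18C*, *MRPL35* and *MRPS26*), SEs were longer by a median of 1.18 times, and the fourth was *MRPL34* (-0.89). Deviations of same-numbered samples correlated at 0.040, 0.16 and 0.11 for numbers 1, 3 and 5, and the best match was the library of the same number for each of these except winter replicate 1, which was most like summer replicate 2. The paper speaks of corresponding replicates, but no source says that equal numbers are the same cows and not every correlation was over 0.1, so the numbers were not taken to pair the pools. *MRPL36* and *MRPL10* had an adjusted p of 0.0617 and 0.0647 in the block fit.

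With each library left out in turn, 3 to 9 genes were higher and 2 to 6 lower (large 1 to 5 and 2 to 5, small 1 to 4 and 0 to 2), and 1555 to 2904 of all genes passed. Medians ranged from -0.16 to -0.017 (large) and -0.016 to 0.11 (small), the subunit difference from -0.16 to -0.070, the summed ratio from 0.922 to 1.001 and the cytosolic ratio from 0.587 to 0.618.

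On the TPM as deposited each of the 77 genes had a positive value, and without the TMM factor 60 did, compared with 35 on the scaled TPM. Among the genes named for their season difference or place outside the prefix, direction reversed on the TPM as deposited in *MRPL36* (0.54), *MRPL10* (0.73), *MRPS26* (0.87), *MRPL9* (0.90), *MRPL52* (0.94), *MRPS34* (0.95), *MRPS36* (0.73), *MRPL43* (0.81), *MRPL34* (0.80), *MRPS18B* (1.26), *DAP3* (0.92), *CHCHD1* (1.32), *AURKAIP1* (1.31), *GADD45GIP1* (1.28), *SLIRP* (0.78) and *NGRN* (0.91). Without the TMM factor it reversed, among these genes, in *MRPS18B* (0.17), *DAP3* (0.073), *CHCHD1* (0.13), *AURKAIP1* (0.16) and *GADD45GIP1* (0.14). With single libraries left out, *MRPS18B* ranged from -0.27 to 0.0097 (positive without winter replicate 4) and *CHCHD1* from -0.29 to 0.027 (positive without summer replicate 3). The cause was not tested.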
